A study of Mus musculus with 6 samples.

Results

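The regions described here are stretches of intron that were already mostly methylated in infant lung endothelial cells (EC) and gained further methylation by young adulthood. They are a class of differentially methylated regions (DMRs), that is, runs of neighbouring CpGs whose mean methylation differed between infant and young adult lung EC. A DMR was a member when its young adult mean was above its infant mean, its infant mean was at least 50%, and its midpoint lay in the body of a curated RefSeq gene, in no exon and more than 1 kb from every transcription start site (TSS). On chromosomes 1 to 19, 2306 DMRs met these conditions, 12.6% of the 18333 DMRs listed in all, 23.6% of the 9754 autosomal DMRs with gain of methylation and 54.98% of the 4194 autosomal intronic gains. The members were chosen by the methylation means of the same samples, so their means and differences describe the choice and are not tested.

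The infant group held 3 samples from C57BL/6N mice aged 8 to 10 days and the young adult group 3 samples from C57BL/6N mice aged 8 to 12 weeks. The mice were female according to the study's methods, carried no transgene or treatment named in the sources used here, and were compared to follow lung EC from growth to quiescence. EC were sorted by surface proteins, with CD31 and CD34 present and the markers of leukocytes, red cells and lymphatic EC absent. Methylation was measured by T-WGBS, bisulfite sequencing of the whole genome after tagmentation, in which a transposase fragments and tags the DNA and bisulfite converts unmethylated cytosines. Each DMR has 1 mean per group, made by the authors over 3 samples. Values per sample and the read depth behind a DMR are unknown here, so the spread between replicates cannot be read and no p-value is given for the difference between the ages.

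Most CpGs of a mammalian genome are methylated, and the bodies of transcribed genes usually carry high methylation outside regulatory elements. The methyl group is placed by the de novo enzymes DNMT3A and DNMT3B and copied after replication by DNMT1 with UHRF1. Active enhancers and CpG islands stand out as dips in this background, since bound transcription factors and TET enzymes keep methylation low there. Partly methylated stretches are also known from cells that divide fast, where copying can lag behind replication, most of all at isolated CpGs flanked by A or T.

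The sequences below are from the plus strand of GRCm38 (mm10), as given by RefSeq, and run from the first to the last CpG of the DMR with each CpG in capitals. Of the first group, shown for having the largest differences, the DMR in *Tbx3os1* (chr5:119662808-119662873) lay in intron 1 of a non-coding transcript, that in *Rtn1* (chr12:72361807-72361837) in intron 1, that in *Mvb12b* (chr2:33844208-33844264) in intron 2, that in *Klhl3* (chr13:58051179-58051350) in intron 5 and that in *8430430B14Rik* (chr17:84008712-84008789) in the single intron of a non-coding transcript.
Tbx3os1: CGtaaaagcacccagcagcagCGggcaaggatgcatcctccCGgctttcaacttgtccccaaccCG
Rtn1: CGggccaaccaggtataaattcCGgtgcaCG
Mvb12b: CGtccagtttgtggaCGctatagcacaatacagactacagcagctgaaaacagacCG
Klhl3: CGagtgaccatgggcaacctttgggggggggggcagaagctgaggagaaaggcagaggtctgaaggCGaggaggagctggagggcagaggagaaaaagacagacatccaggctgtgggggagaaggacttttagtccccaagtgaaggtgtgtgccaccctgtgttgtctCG
8430430B14Rik: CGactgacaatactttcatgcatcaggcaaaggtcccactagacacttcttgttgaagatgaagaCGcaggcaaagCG
The next is the member with most CpGs among those no wider than 300 bp, in intron 3 of *Ano6* (chr15:95904486-95904641).
Ano6: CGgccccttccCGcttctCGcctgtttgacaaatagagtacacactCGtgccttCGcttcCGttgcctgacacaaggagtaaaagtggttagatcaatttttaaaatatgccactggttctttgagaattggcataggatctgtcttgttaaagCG
A typical member, close to the median mean at both ages, lay in the single intron of *Elfn2* (chr15:78703373-78703559), and another in intron 12 of the non-coding *6530403H02Rik* (chr3:120536025-120536178).
Elfn2: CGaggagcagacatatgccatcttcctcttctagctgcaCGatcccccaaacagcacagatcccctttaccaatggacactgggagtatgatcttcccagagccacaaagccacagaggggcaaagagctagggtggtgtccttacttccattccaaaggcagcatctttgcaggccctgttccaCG
6530403H02Rik: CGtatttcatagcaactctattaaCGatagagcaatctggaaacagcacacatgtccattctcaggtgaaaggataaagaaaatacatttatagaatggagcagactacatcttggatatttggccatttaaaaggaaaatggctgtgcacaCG
Of the genes that held most members, *St6galnac3* is shown by its member with the largest difference (chr3:153241828-153241930, intron 3) and *Lrmda* likewise (chr14:22257705-22257991, intron 2). *Zfp521*, which held as many members as *St6galnac3*, is not shown, and *Lrmda* tied with *Magi1* and *Smyd3* at 10 members and was taken as the first by symbol.
St6galnac3: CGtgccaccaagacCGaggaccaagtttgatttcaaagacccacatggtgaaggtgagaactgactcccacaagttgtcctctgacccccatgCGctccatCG
Lrmda: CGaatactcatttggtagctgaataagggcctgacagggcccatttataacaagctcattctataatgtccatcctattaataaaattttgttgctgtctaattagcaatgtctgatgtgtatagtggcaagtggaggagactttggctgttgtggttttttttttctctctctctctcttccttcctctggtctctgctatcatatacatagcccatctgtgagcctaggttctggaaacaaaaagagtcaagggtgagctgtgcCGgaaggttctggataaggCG
The typical members hold 3 CpGs in 187 and 154 bases. The CpGs are far apart, and most of each sequence carries no site that could be methylated in this context. In *6530403H02Rik*, 3 of 3 CpGs have A or T on both sides, against 1 of 3 in *Elfn2*.

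The members went from a median infant mean of 70.8% (50.03 to 89.6%) to a median young adult mean of 88.9% (63.6 to 100%). The median difference was 17.0 percentage points, with quartiles of 14.1 and 20.8 and a highest value of 37.6, and 71.5% of members differed by less than 20 points. The young adult mean was at least 80% in 1898 of 2306 members (82.3%) and at least 90% in 1027 (44.5%), and 12 members reached 100%. The members covered a median of 62.3% of the distance left to full methylation (quartiles 51.9 and 73.1%), from a median of 49.8% where the infant mean was 50 to 60% to 78.9% where it was 80 to 90%. The least difference of 10 points forces a large share near the ceiling. Classes used for comparison were placed by the same conditions on genes. The median of the 1888 intronic gains that began below 50%, called low-start gains, went from 29.2 to 56.6%. The 4481 intronic losses that began at 50% or above, called losses, went from a median of 69.3 to 33.1%, and the 2791 intergenic gains that began at 50% or above from 70.1 to 88.4%.

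The difference was smaller where the infant mean was higher, which the ceiling of 100% forces in part. Among members with an infant mean of 50 to 60% (n = 483), the median difference was 22.4 points and the median young adult mean 77.4%. At 60 to 70% (n = 611), the median difference was 19.3 points. At 70 to 80% (n = 722) it was 16.1 points, and at 80 to 90% (n = 490) it was 12.6 points, with a median young adult mean of 96.5%. Because a listed DMR has to differ by at least 10 points, none could begin above 90%.

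**Figure D1:**
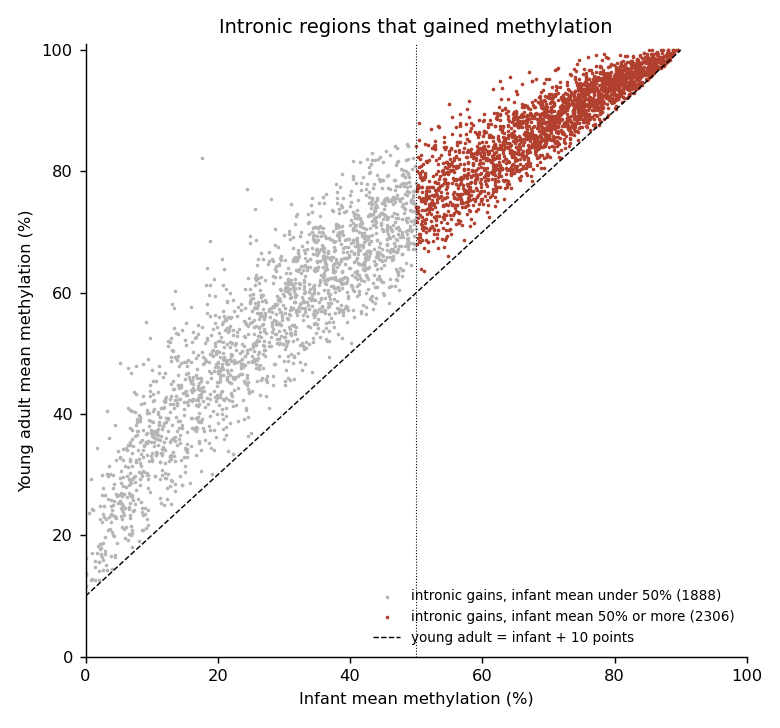
Infant mean methylation (x axis, %) against young adult mean methylation (y axis, %) of 4194 autosomal intronic DMRs with gain of methylation, 1 point per DMR; red points are the 2306 members and grey points the 1888 gains that began below 50%. The members narrow towards 100% along the dashed line, which marks a rise of 10 points, and no gap separates them from the grey points at 50%.

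The condition of 50% divides a continuous range. Just inside it were DMRs in intron 2 of *Fbxl7*, which encodes an F-box protein (50.03 to 74.1%), in *8430430B14Rik* (50.03 to 84.2%) and in intron 19 of *Srcin1*, which encodes a SRC inhibitor (50.05 to 77.3%). Just outside were DMRs in the single intron of *Gfod1* (49.99 to 78.1%), in intron 3 of *Syn3*, a synapsin gene (49.99 to 68.0%), and in intron 8 of *Alkbh3*, which encodes an alkylation repair enzyme (49.98 to 70.4%).

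The largest differences were at DMRs that began close to 50%. The DMR in *Tbx3os1*, a transcript antisense to the T-box gene *Tbx3*, went from 50.4 to 88.0% over 4 CpGs and lay 0.023 kb from another listed DMR. That in *Rtn1*, which encodes a reticulon of the endoplasmic reticulum, went from 54.9 to 91.1%. In *Mvb12b*, which encodes a subunit of the ESCRT-I sorting complex, the mean went from 52.2 to 87.0%. In *Klhl3*, which encodes a substrate adaptor of a ubiquitin ligase, it went from 50.5 to 85.1%, and 67.4% of the bases of that DMR are masked as repeat. At the other end, DMRs in *Vps53*, *Rerg* and *Rxfp2* began between 87.4 and 88.4% and differed by 10.05, 10.04 and 10.01 points.

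The members held few CpGs. The median width was 136 bp (6 to 651), against 127 bp over all listed autosomal DMRs and 122 bp for the low-start gains. It was 144 bp for the losses and 144 bp for the intergenic gains. Of the members, 2012 of 2306 (87.3%, 95% Wilson interval 85.8 to 88.6%) held exactly 3 CpGs, the least that any listed DMR has. Only 58 members (2.52%) held 5 or more. Of the intronic gains from low infant methylation, 66.8% held 3 CpGs, and of the intronic losses from high infant methylation 49.9%. Intergenic gains from high infant methylation, which differ from the members by lying outside genes, matched them at 87.0%. Per DMR, members held 3.16 ± 0.0451 CpGs (mean ± SD over 19 autosomes) against 4.29 ± 0.264 in the losses, and were lower on 19 of 19 autosomes. Wilson intervals cover the number of DMRs only and treat DMRs as independent, although several can lie in 1 gene.

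The member with most CpGs lay in the single intron of *Kcnj2*, which encodes an inward rectifier potassium channel (chr11:111067929-111068579, 8 CpGs, 51.3 to 79.8%). The next lay in intron 1 of *Tbxas1*, the thromboxane synthase gene (chr6:38925988-38926300, 7 CpGs, 54.9 to 82.9%), and in intron 3 of *Ano6*, which encodes a phospholipid scramblase (7 CpGs, 55.2 to 82.1%). Members with 6 CpGs included DMRs in *Kazn*, the kazrin gene (62.2 to 89.7%), and in the non-coding *Gm34084* (55.04 to 80.9%).

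The sequence around the members held fewer CpGs than that around the gains from low infant methylation. In the 500 bp around the midpoint, members had 7.32 ± 0.481 CpGs (mean ± SD over 19 autosomes) and the low-start gains 9.02 ± 0.993, a difference of -1.70 ± 0.675 with 19 of 19 autosomes in this direction. With a difference of at least 20 points it was -1.09 ± 0.806, lower on 17 of 19 autosomes. Against the losses from high infant methylation the difference was -0.34 ± 0.399, smaller than its SD over autosomes, with 16 of 19 autosomes lower. Its sign turned when DMRs had to differ by at least 20 points (0.31 ± 0.913) or to hold at least 4 CpGs (0.14 ± 1.005). Members and intergenic gains differed by 0.24 ± 0.560, with 10 of 19 autosomes higher. Introns more than 1 kb from a TSS hold 4.24 CpGs per 500 bp, but a DMR needs at least 3 CpGs, so windows around DMRs cannot be read against that value.

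CpG islands, computed here from the genome sequence (200 bp or longer, GC share 50% or higher, observed CpGs more than 0.6 of those expected), overlapped 221 members (9.58%, interval 8.45 to 10.9%). They overlapped 16.4% of the low-start gains and 10.04% of the losses. Under stricter island limits 14 members (0.607%, interval 0.362 to 1.02%) overlapped one, against 3.65% of the low-start gains and 0.268% of the losses (interval 0.153 to 0.468%). The midpoint of 390 members (16.9%, interval 15.4 to 18.5%) lay in a masked repeat, against 10.6% of the low-start gains, 15.0% of the losses and 24.1% of the intergenic gains. At least 50% of the bases were masked in 9.41% of members. The difference from the low-start gains over 19 autosomes, 5.55 ± 5.34 points, was 2.59 ± 5.97 when DMRs had to differ by at least 20 points and 2.23 ± 10.8 with at least 4 CpGs, where members were higher on 12 autosomes. Masked repeats hold 20.7% of the CpGs in introns more than 1 kb from a TSS, and reads in repeats are harder to place. The difference from the losses, 1.71 ± 4.20 points over 19 autosomes, was within the spread of the autosomes and turned to -2.12 ± 5.53 when DMRs had to differ by at least 20 points and to -0.98 ± 9.23 with at least 4 CpGs.

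The bases beside the CpGs also differed between the classes. Of the 7283 CpGs in members, 2082 (28.6%, interval 27.6 to 29.6%) had A or T on both sides, the context in which methylation is known to be lost most readily in dividing cells. The share was 23.0% in the low-start gains and 24.3% in the losses. Over the autosomes the members were 4.39 ± 2.86 points above the losses, with 19 of 19 autosomes higher. The difference was 2.75 ± 5.28 points, higher on 12 of 19 autosomes, with at least 4 CpGs, and 3.74 ± 4.68 points, higher on 14 of 19, with a difference of at least 20 points. Intergenic gains from high infant methylation had 27.8%. Among all 7671571 CpGs in introns more than 1 kb from a TSS the share was 28.3%. A DMR needs at least 3 CpGs, so the classes cannot be read against that value. The part of CpG density and base composition in these shares was not tested.

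The features are given here by bins of the infant mean, and where along it they changed was not tested. CpGs per 500 bp fell from 10.8 in gains that began under 10% to 8.15 at 40 to 50%, 8.06 at 50 to 60% and 6.84 at 70 to 80%, and were 7.28 at 80 to 90%. The share of CpGs with A or T on both sides was 18.5% under 10%, 25.1% at 40 to 50% (interval 23.0 to 27.3%), 28.9% at 50 to 60% (interval 26.7 to 31.2%), 28.3% at 60 to 70%, 30.4% at 70 to 80% and 25.9% at 80 to 90%. The share in intron 1 ran from 37.4 to 39.8% in the bins below 50%, with 39.1% at 40 to 50% (interval 34.7 to 43.7%). It was 31.5% at 50 to 60% (interval 27.5 to 35.7%), 31.3 and 30.1% in the next bins and 22.7% at 80 to 90%.

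**Figure D2:**
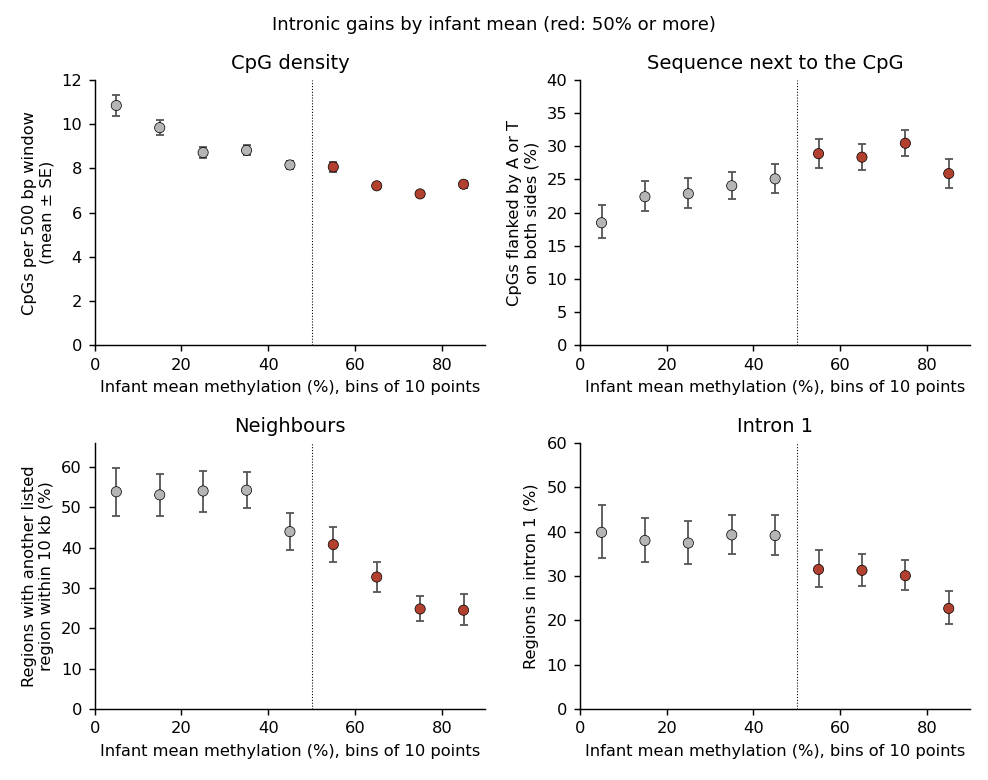
Intronic gains in bins of 10 points of infant mean methylation (x axis, %); the panels give CpGs per 500 bp window (mean ± SE over DMRs), the percent of CpGs with A or T on both sides, the percent of DMRs with another listed DMR within 10 kb and the percent in intron 1, with 95% Wilson intervals. Bins of members are red. CpG density, neighbours and intron 1 are lower in the red bins, and the share of CpGs with A or T on both sides is higher in them than in the grey bins. Beside the 50% line, CpG density (8.15 and 8.06) and neighbours (44.0 and 40.8%, overlapping intervals) differ little. The share with A or T at 80 to 90% (25.9%) is close to that at 40 to 50% (25.1%).

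Within genes, members lay farther from start sites than the low-start gains and the losses. Their placement was not compared with that of introns as a whole. Their median distance to the nearest TSS was 32.5 kb (quartiles 11.8 and 77.3), against 21.1 kb for the low-start gains and 16.9 kb for the losses, and 19.5% of members were more than 100 kb from every TSS, against 5.45% of the losses. Over the autosomes the median distance was 16.3 ± 8.32 kb greater than for the losses, in 19 of 19 autosomes. Members also lay in longer genes, with a median length of 143 kb against 118 kb for the low-start gains and 87.8 kb for the losses. The median position was 50.1% along the transcript, with quartiles at 25.6 and 74.0%. The losses had a median position of 37.3% and the low-start gains of 41.7%.

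Intron 1 held 671 members (29.1%, interval 27.3 to 30.99%), compared with 38.7% of the low-start gains and 44.5% of the losses. Members were 15.6 points below the losses (SD over autosomes 9.15), lower on 19 of 19 autosomes. Of all members, 2068 lay in protein-coding and 238 in non-coding transcripts, and 95.3% lay wholly outside exons. The median distance to the nearest exon was 4.69 kb.

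Members mostly lay far from other DMRs. The median distance to the nearest listed DMR of any class was 26.7 kb for members, 9.25 kb for the low-start gains, 2.03 kb for the losses and 49.3 kb for the intergenic gains. Another DMR lay within 10 kb of 30.2% of members (interval 28.3 to 32.1%) and of 75.4% of the losses, a difference (members minus losses) of -44.4 ± 6.38 points that had the same sign on 19 of 19 autosomes. No other DMR lay within 100 kb of 546 members (23.7%), against 13.6% of all listed autosomal DMRs, 9.53% of the low-start gains, 4.04% of the losses and 35.4% of the intergenic gains. Where the nearest DMR was taken, it had also gained methylation for 1782 of 2306 members (77.3%, interval 75.5 to 78.9%), against 51.4% over all listed autosomal DMRs and 13.2% for the losses. The share was 84.2% for the low-start gains and 79.0% for the intergenic gains, so the other gain classes had it at or above the level of the members. Among the members with a DMR within 10 kb, the share was 78.9%.

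The members lay in 1631 genes, which was 7.97% of the 20473 autosomal genes that hold at least 1 intronic base more than 1 kb from a TSS. Of these genes, 1218 (74.7%, interval 72.5 to 76.7%) held exactly 1 member, 131 held at least 3 and 31 at least 5. The last count was 19 with an infant mean of at least 60%, 3 with a difference of at least 20 points and 0 with at least 4 CpGs. In 762 genes the single member was the sole listed DMR of the gene body. Genes with losses of the same class were fewer, at 1505, but held 2.98 each on average, against 1.41 members per gene, and 241 of them held at least 5. Losses from any infant mean, anywhere in the gene body, form a wider class. Such a loss lay in 383 of the 1631 genes (23.5%), against 10.7% of the 20473 genes. Longer genes more often held members, and more often held intronic losses from high infant methylation.

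The count per gene followed gene length. A member was found in 0.601% of genes up to 10 kb, 9.89% of genes of 30 to 100 kb, 30.7% of genes of 100 to 300 kb and 60.7% of the 517 genes over 300 kb. Per Mb of intron more than 1 kb from a TSS, however, the rate stayed between 2.03 and 2.99 over these groups. Losses ranged more widely, from 7.53 per Mb in genes of 30 to 100 kb to 1.72 per Mb in genes over 300 kb. Among the chromosomes, members ranged from 2.07 per Mb on chromosome 16 to 3.37 per Mb on chromosome 11, around 2.55 per Mb in all when each base is counted once, and losses from 3.13 on chromosome 3 to 7.98 on chromosome 11.

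**Figure D3:**
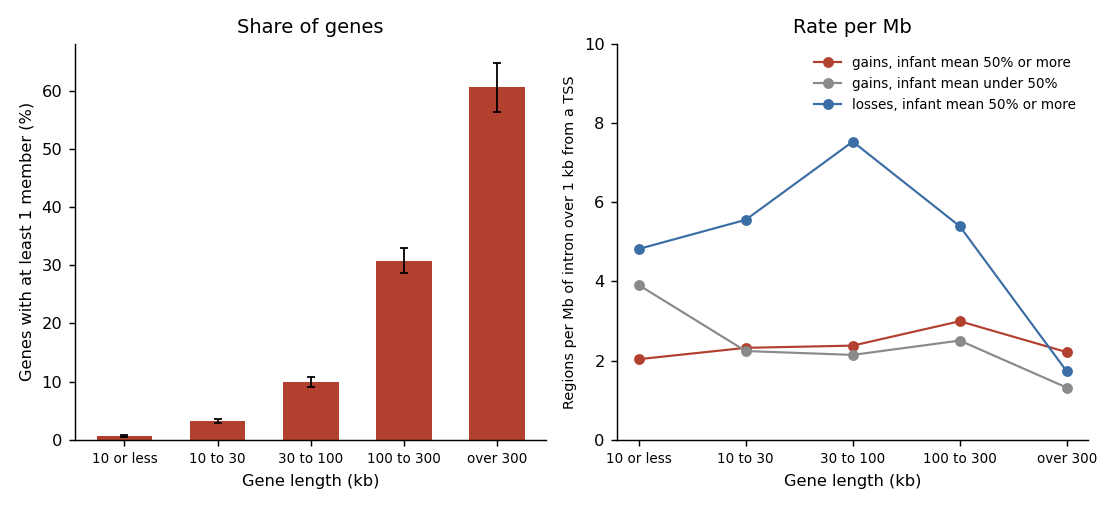
Left, percent of genes with at least 1 member (y axis) by gene length in kb (x axis), with 95% Wilson intervals; right, DMRs per Mb of intron more than 1 kb from a TSS for members (red), intronic gains from low infant methylation (grey) and intronic losses from high infant methylation (blue). The share of genes climbs from 0.601 to 60.7%, while the red line stays between 2.03 and 2.99 per Mb.

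The genes with most members were long. Gaps under 1 kb between neighbouring members occurred in *St6galnac3*, *Zfp521*, *Smyd3* and *Jazf1*. *St6galnac3*, which encodes a sialyltransferase (chr3:153202509-153725133, 523 kb), held 11 members over 461 kb, 9 of them in intron 1. In order along the chromosome their infant means were 50.8, 55.5, 54.5, 52.8, 57.2, 63.4, 74.1, 69.0, 80.9, 63.2 and 54.4%, and their young adult means 79.0, 78.8, 81.5, 74.2, 77.0, 83.99, 95.6, 87.3, 95.2, 84.8 and 78.5%. The 3 members with the highest infant means, 80.9, 74.1 and 69.0%, were also the highest in young adults. The same gene body held 5 losses from any infant mean and 5 gains that began below 50%.

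*Zfp521*, which encodes a zinc finger regulator of progenitor cells, held 11 members, with infant means of 51.6 to 88.4% and young adult means of 69.6 to 98.7%. *Smyd3*, which encodes a lysine methyltransferase, held 10 over 391 kb, in 3 introns, and the median went from 69.7 to 88.5%. *Jazf1*, which encodes a zinc finger cofactor, held 8, of which 6 began at 64.7% or above. *Tafa1*, which encodes a secreted protein of the nervous system, held 7 members and no other listed DMR. In the other 9 of these 10 genes, listed DMRs of other classes were present, from 2 beside the members of *Jazf1* to 14 beside those of *Plxna4*, a plexin receptor gene.

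*Magi1*, which encodes a scaffold of cell junctions, held 10 members (infant median 70.3%, young adult median 88.5%) among 23 listed DMRs, of which 12 were gains that began below 50%. *Lrmda* held 10, with infant means of 52.9 to 79.5% and young adult means of 78.9 to 97.7%, all but 1 in intron 2. *Rora*, a nuclear receptor gene, held 9 members, all in intron 1 of the transcript used, with infant means of 63.1 to 87.8% and young adult means of 84.6 to 98.2%. *Ldlrad4*, which encodes an inhibitor of TGFβ signalling, held 7 (median 74.4 to 90.4%).

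**Figure D4:**
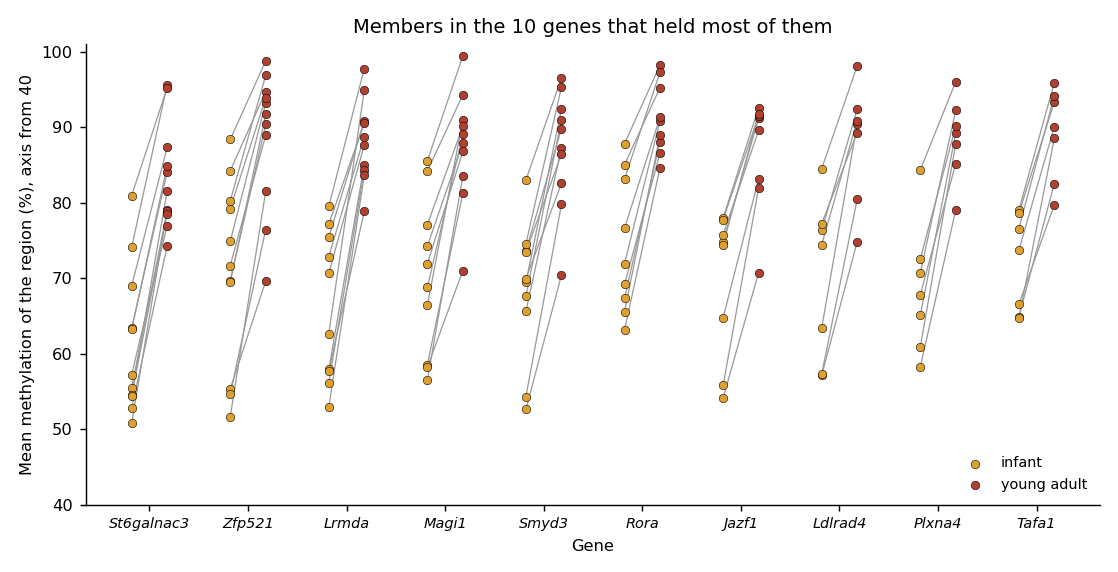
Mean methylation (y axis, %, from 40) of each member in the 10 genes with most members (x axis), infant in yellow and young adult in red, with a line joining the means of 1 DMR. The infant means of 1 gene spread most widely in *Zfp521*, from 51.6 to 88.4%, and least in *Tafa1*, from 64.7 to 79.0%, and most young adult means lie above 80%.

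Counted per 100 kb of intron, the densest genes with at least 3 members were shorter. *Gm11529*, a non-coding gene (chr11:96446899-96464547), held 3 members in 17.6 kb, with infant means of 54.2 to 76.9% and young adult means of 78.7 to 95.7%, and no other DMR. *Hspg2*, which encodes the basement membrane proteoglycan perlecan, held 5 within 26.9 kb of intron 1 (chr4:137472211-137499097). Their infant means were 53.7 to 58.6% and their young adult means 76.7 to 87.8%, and 13 further gains in that gene began below 50% and so were not members. *Arsj*, an arylsulfatase gene, held 4 within 6.23 kb of its intron 1, from 62.4 to 79.9% in infants and 77.4 to 97.5% in young adults. *Rfx8*, of the RFX family of transcription factors, held 4. *Gm11266*, *Bahcc1*, *Tbx3os1*, *Morn1*, *1700029J03Rik* and the neurotrophin gene *Ntf3* held 3 each.

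Lists of genes with known roles in vessels, or of other kinds, were compared by their counts beside those over all genes, with no test. Over all 20473 genes, 7.97% held a member, at 2.498 members per Mb of intron more than 1 kb from a TSS (bases in several genes counted for each), and the median gene length was 19.3 kb. The rate of members on the 11 lists of pathways and families ran from 1.67 to 4.89 per Mb, whereas that of intronic losses from high infant methylation ran from 0.0424 to 41.6 per Mb. The list with the highest rate of losses, endothelial identity, was not that with the highest rate of members, extracellular matrix.

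Over all genes, losses outnumbered members with 4481 against 2306, or 4.85 against 2.498 per Mb, and on the signalling lists they did so too. Of 38 TGFβ and BMP signalling genes, 8 held 13 members (4.34 per Mb) while the list held 119 losses (39.7 per Mb). *Smad1*, which encodes a BMP-activated signal transducer, held 2 members (56.4 and 57.5% in infants, 77.6 and 86.2% in young adults), and *Ltbp1*, which encodes a latent TGFβ binding protein, and *Acvr1*, a BMP receptor gene, also held 2 each. Of 29 semaphorin, plexin and neuropilin genes, 7 held 14 members and the list held 85 losses; 7 of the 14 members lay in *Plxna4*, 2 in *Sema4d* and 1 in *Nrp2*, which encodes a receptor of semaphorins and VEGF (78.6 to 95.9%). The 24 NOTCH signalling genes held 5 members and 14 losses. *Maml3*, a coactivator gene, held 3 members and the receptor gene *Notch2* held 2 (61.8 and 70.05% in infants, 82.9 and 92.8% in young adults).

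Of 42 WNT signalling genes, 4 held 12 members beside 66 losses, among them *Tcf7l2*, which encodes a partner of β-catenin, with 5 (54.1 to 75.6% in infants, 72.4 to 93.4% in young adults), *Ror1*, a WNT receptor gene, with 4, and *Tcf7l1* with 2. Of 31 genes for VEGF, FGF, PDGF, angiopoietins and their receptors, a list that also held *Kit*, *Kitl*, *Egfr*, *Erbb4* and *Igf1r*, 8 held 12 members (2.61 per Mb) beside 58 losses, among them *Angpt1*, the ligand of the TIE2 receptor, with 2 (76.6 and 77.7% in infants, 91.6 and 96.2% in young adults), and *Erbb4*, which encodes a neuregulin receptor, and *Fgf12*, which encodes an FGF homologue that stays inside the cell, with 2 each.

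Among the 11 lists, genes of endothelial identity had the largest excess of losses over members per Mb. Of 37 such genes, 5 held 7 members (3.03 per Mb), while the list held 96 losses (41.6 per Mb) and 28 gains that began below 50% (12.1 per Mb, against 2.05 over all genes). *Erg*, an ETS factor gene of EC, held 1 member (80.2 to 95.1%) beside 15 losses from any infant mean. *Foxp1* held 2 members among 24 listed DMRs, and *Mef2c* held 2 members (75.3 and 80.3% in infants, 88.1 and 92.5% in young adults) and no other DMR.

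On other lists members outnumbered losses, and so did the low-start gains. The low-start gains numbered 30 on the extracellular matrix list, 20 on the nuclear receptor list and 27 on the list of neuronal adhesion and synapses. The 49 extracellular matrix genes held 30 members (4.89 per Mb) in 16 genes and 9 losses, with *Col14a1* and *Col25a1* holding 3 members each after *Hspg2*. The 42 nuclear receptor genes held 18 members (3.72 per Mb) and 8 losses, with 9 of the members in *Rora*, followed by *Rarb*, a retinoic acid receptor gene, with 3 (80.1 to 83.8% in infants, 94.0 to 97.8% in young adults) and *Esrrg* with 2. The 48 long genes of neuronal adhesion and synapses, with a median length of 912 kb, held 79 members in 36 genes and 2 losses. The members came to 1.67 per Mb, below the rate of all genes. *Auts2* and *Tenm2* held 6 members each and *Tenm4* 5.

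Of 30 genes for junction scaffolds and polarity, 10 held 24 members beside 35 losses. Their median length was 145 kb, and the 2.22 members per Mb were below the rate of all genes. After the 10 in *Magi1*, there were 3 in *Pard3* and 2 in *Ctnna2*. Of 38 genes for DNA methylation and histone modification, 5 held 16 members (3.60 per Mb), 10 of them in *Smyd3*, beside 29 losses (6.53 per Mb). *Dnmt3a*, which encodes a de novo methyltransferase, held 2 members (74.7 and 82.4% in infants, 91.8 and 95.2% in young adults). Beside them lay 8 losses from any infant mean and 2 gains that began below 50%. *Mecom* held 2 members.

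**Figure D5:**
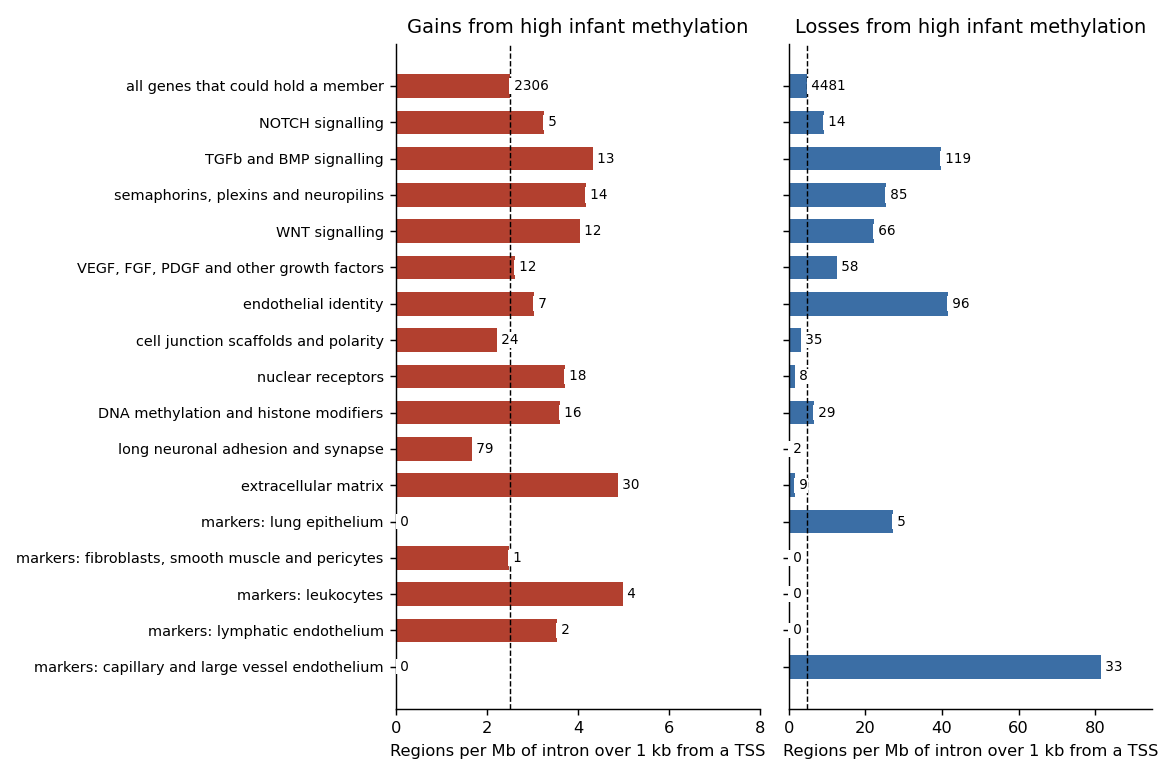
DMRs per Mb of intron more than 1 kb from a TSS (x axes, different scales) for all genes, 11 gene lists and 5 lists of cell type markers (rows); members are red, intronic losses from high infant methylation blue, the number at each bar is the count of DMRs and the dashed line the rate over all genes. Members stay between 1.67 and 4.89 per Mb over the 11 lists, while losses reach 41.6 per Mb on the endothelial identity list.

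Marker expression was not analysed here, so the sorted cell type was not checked; the DMRs in marker genes are given as counts. Of 11 marker genes of capillary and large vessel EC, 0 held a member, and the list held 33 losses. Of 15 lung epithelial markers, with a median length of 4.97 kb, 0 held a member. With 7.97% of all genes holding a member, lists of this size would hold few at the background rate, and these counts do not check the cell type. Of 16 markers of fibroblasts, smooth muscle and pericytes 1 did, *Myh11* (73.8 to 92.4%). Of 16 leukocyte markers 3 did, the transcription factor genes *Runx1*, with 2 members, and *Ikzf3* and *Spi1*, with 1 each (71.3 to 94.0% in *Spi1*). The leukocyte, fibroblast and lymphatic lists held 0 intronic losses from high infant methylation, and the lung epithelial list held 5. *Reln*, the member gene on the list of 5 lymphatic EC markers, held 2. The part that other cell types in the sort had in these values was not tested.

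Short words known from transcription factor sites were searched for on both strands of 200 bp windows around the DMR midpoints, as a description. AGGAAG, a word of ETS factors, was in 23.6% of members (interval 21.9 to 25.4%), 34.3% of the low-start gains, 27.8% of the losses and 28.6% of all listed DMRs. The share was lower in members than in the low-start gains on 19 of 19 autosomes. TGTTTAC, a forkhead word, was in 2.60% of members and 5.98% of the losses (lower on 17 of 19 autosomes; 4.37% of all DMRs). CACGTG, an E-box, was in 2.91 and 4.82% (lower on 18 of 19; 4.24% of all). TTGGCA, of NFI factors, was in 10.6 and 14.1% (lower on 16 of 19; 12.3% of all), and AGATAA, of GATA factors, in 9.71 and 13.5% (lower on 16 of 19; 11.8% of all). Members minus losses over the autosomes came to -3.55 ± 2.24 points for TGTTTAC and -1.89 ± 1.83 for CACGTG. For TTGGCA it was -3.72 ± 3.97 and for AGATAA -3.71 ± 5.17, both smaller than their SD. The other gain classes also had lower shares than the losses for these 4 words. For CACGTG, however, the share in the low-start gains lay within the interval of the losses (4.23 to 5.49%). The low-start gains had TGTTTAC in 3.81%, CACGTG in 4.71%, TTGGCA in 9.64% and AGATAA in 10.3%. The intergenic gains had TGTTTAC in 2.76%, CACGTG in 3.37%, TTGGCA in 9.96%, AGGAAG in 22.9% and AGATAA in 307 of 2791 DMRs.

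For GGAATG the members lay above all listed DMRs by more than their interval. GGAATG, of TEAD factors, was in 13.7% of members (interval 12.3 to 15.1%), 10.9% of the losses and 11.7% of all DMRs. It was in 11.5% of the low-start gains and 11.7% of the intergenic gains. Over the autosomes, members differed from the losses by 2.95 ± 4.03 points, higher on 14 of 19 autosomes. From the low-start gains they differed by 2.23 ± 5.71 points, higher on 12 of 19. Both differences were smaller than their SD. For CCGGAA (ETS), TGANTCA (AP-1), TGACGT (cAMP response), GTGGGAA (RBPJ), GGGANNTCC (NFKB), TGTGGT (RUNX) and CTATTTATA (MEF2), the share in all listed DMRs lay within the interval of the members. The same held for ACAATG (SOX), in 9.32% of members, 13.0% of the low-start gains and 10.1% of all DMRs, and for CAGCTG (E-box), in 11.1, 14.6 and 12.3%. CCACCC (KLF) was in 13.4% of members, 13.3% of the intergenic gains, 15.8% of the low-start gains, 16.3% of the losses and 16.0% of all DMRs. The ETS, TEAD and RBPJ words can share bases, and the second ETS word, the E-box CACGTG and the cAMP response word contain a CpG. Over 500 bp, the windows of members had a mean GC content over autosomes of 46.1%, those of the losses 46.7% and those of the low-start gains 48.2%, and the part of base composition in these shares was not tested.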

How the data were processed

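T-WGBS of sorted lung EC was available as 1 list of DMRs for 3 infant and 3 young adult samples. Per the labels, reads were processed with bcl2fastq 1.8.4, BWA 0.6.1 and R 3.2.2 on mm10. The authors called DMRs with bsseq without smoothing, from CpGs above a coverage minimum that each passed a test between the groups, and deposited 1 fraction per DMR and age group, the mean over its CpGs and the 3 samples. In the list the fewest CpGs per DMR are 3 and the smallest difference is 10.003 percentage points. Further columns, the direction of the change and the nearest promoter, belong to the authors' comparison and were not used.

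Fractions were turned into percent. The first and last positions of 18333 of 18333 DMRs are a CpG in GRCm38, whose 45657 curated RefSeq transcripts (26089 genes) gave gene bodies, exons and TSS. A DMR in several genes went to the longest transcript. Classes were compared by shares with 95% Wilson intervals and by the mean ± SD over 19 autosomes (Python 3.11.15, numpy, pandas, scipy), with no test. The steps for placement and class differences were also run on simulated data. Those results are not given here and test no class difference. The members, the gene lists and the rule for named genes and regions were chosen with earlier results of these data known. The result of 1 gene list is not reported here. The rule took the 10 genes with most members, the 10 with most per 100 kb among genes with at least 3, the 3 with most on each list, and DMRs by difference, CpGs, closeness to 50% and closeness to the medians. Depth per sample was not analysed here. Alternatives were a difference of at least 20 points, at least 4 CpGs, an infant mean of at least 60%, protein-coding transcripts, whole DMRs over 2 kb from a TSS, joined DMRs, 1 DMR per gene, other windows, and other definitions of repeats, islands and introns.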

Additional observations from a re-analysis of the deposited data

Results flagged for a closer look

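On the X chromosome, which lies outside the autosomes described above, 9 DMRs met the same conditions. They were 5.73% of the 157 X-linked DMRs with gain of methylation (95% Wilson interval 3.04 to 10.54%), against 23.6% on the autosomes, and their medians were 69.8% in infants and 89.2% in young adults.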

How the results depend on the processing

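Of 111 values under the alternatives, over 15 results, 82 stayed within the limits set by their interval, their SD over autosomes or a factor of 1.5, 25 moved beyond these and 4 changed sign. The number of members fell to 658 with a difference of at least 20 points and to 294 with at least 4 CpGs, and the genes with a member to 546 and 265, since these settings keep fewer DMRs. The CpG difference between members and losses became 0.31 and 0.14 per 500 bp under these settings, and was -0.34 in windows of 200 bp, counted per 200 bp. The masked repeat difference from the losses became -2.12 and -0.98 points, and the cause was not tested. Intron 1 held 32.2% of members with a difference of at least 20 points, 32.3% with at least 4 CpGs and 32.1% by the lowest intron number over the transcripts of a gene. The median distance of members to the nearest TSS was 26.1 kb with 1 DMR per gene and 39.8 kb with protein-coding transcripts. It was 35.9 kb with whole DMRs outside exons and over 2 kb from a TSS. The nearest DMR had also gained for 79.8% with a difference of at least 20 points and for 72.7% with 1 DMR per gene. No paired analysis was possible because the list gives 1 mean per group, and leaving out replicates was not possible for the same reason. The authors set a coverage minimum per CpG, but the depth behind each mean is unknown, and the list gives no error for a member's difference.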
